A study of Homo sapiens with 8 samples.

Results

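The clustered protocadherin genes were followed across 8 stable HEK293T clones by 58 probes of a human expression array, chosen because their RefSeq transcript belongs to a gene whose symbol begins with PCDHA, PCDHB or PCDHG. These were 58 of 34127 non-control probes, of which 25422 could be named through RefSeq. They covered 50 of the 19483 genes named on the array, and 50 of 61 symbols of these families in the RefSeq gene table. The 11 symbols with no probe here were PCDHA14, PCDHACT, PCDHB1-AS1, PCDHB3, PCDHGA1, PCDHGA4, PCDHGA6, PCDHGB5, PCDHGA10, PCDHGA11 and PCDHGB9P. By subcluster, 13 genes were alpha, 2 alpha C, 18 beta, 7 gamma A, 7 gamma B and 3 gamma C.

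HEK293T is a human embryonic kidney line. The clones carried, under blasticidin selection, the empty pcDNA6/Myc-His vector (clones #1 and #2), the wild-type catalytic domain of the methylcytosine oxidase TET1 (TET1-CDwt, clones #2 and #5), that domain joined to the part of MBD2 that binds methylated CpG (MBD-TET1-CDwt, clones #3 and #10), or the same fusion with a catalytically inactive TET1 domain (MBD-TET1-CDmut, clones #9 and #10). Each clone is a separate stable line hybridised on 1 array, so n = 2 in each group and the spread between replicates is the spread between clones. The empty vector and TET1-CDwt arrays were on 1 slide and all 4 arrays of the MBD fusions on the other, so in any comparison across these slides the construct and the slide cannot be told apart. Within a slide, the design compares TET1-CDwt with the empty vector and MBD-TET1-CDwt with MBD-TET1-CDmut.

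Clustered protocadherins are cell adhesion proteins of the cadherin superfamily that bind like with like between cells and are best known from neurons, where each cell expresses its own combination. Their genes lie in tandem on chromosome 5. In the alpha and gamma clusters each variable first exon has its own promoter and is spliced to constant exons that all members of the cluster share, whereas the beta genes are self-contained. Promoter choice is known to involve DNA methylation and the architectural protein CTCF, which binds a conserved element close to the start of most variable exons. The files give no probe position, so whether a probe for an alpha or gamma gene lies in its own first exon or in sequence shared with the rest of its cluster was not known here.

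The promoter sequences are shown because methylated CpG in promoters is what the MBD fusion was built to bind. RefSeq promoters (GRCh38.p14, 250 bases before to 50 after the start) were found for 40 of the 50 genes, 44 promoters in all, every one on the plus strand of chromosome 5. The letters CGCT, the core of that element, stood on the sense strand between 20 and 100 bases before the start in 36 of the 44 (81.8%). Among all 35114 promoters of the table the share was 23.0%, so these letters alone do not show that the element is present. Counted anywhere in the 300 bases and on either strand, the same letters stood in 97.7% of the clustered protocadherin promoters and in 70.0% of all promoters. The windows of 40 bases around CGCT are given below for 13 members, namely genes detected on all 8 arrays, genes that differed between clones, and PCDHA1 as a gene detected on no array. Capitals mark CGCT.
PCDHA1: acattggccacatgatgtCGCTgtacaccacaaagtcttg
PCDHA5: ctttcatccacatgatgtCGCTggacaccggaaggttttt
PCDHA7: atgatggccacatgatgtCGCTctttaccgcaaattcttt
PCDHB2: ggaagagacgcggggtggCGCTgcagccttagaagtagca
PCDHB8: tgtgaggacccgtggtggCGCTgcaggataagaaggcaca
PCDHB9: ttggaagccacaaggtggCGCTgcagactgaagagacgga
PCDHB13: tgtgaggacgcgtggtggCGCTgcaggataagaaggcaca
PCDHGA2: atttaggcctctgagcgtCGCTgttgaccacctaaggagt
PCDHGA3: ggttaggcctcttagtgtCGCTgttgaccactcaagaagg
PCDHGA7: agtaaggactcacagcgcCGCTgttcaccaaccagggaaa
PCDHGA8: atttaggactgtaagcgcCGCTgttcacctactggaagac
PCDHGA9: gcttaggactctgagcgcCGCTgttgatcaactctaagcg
PCDHGC4: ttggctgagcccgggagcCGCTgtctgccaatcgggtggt
The windows lie, in GRCh38.p14 and on the plus strand, at chr5:140786084-140786123 for PCDHA1, chr5:140821540-140821579 for PCDHA5 and chr5:140834170-140834209 for PCDHA7 in the alpha cluster, at chr5:141094542-141094581 for PCDHB2, chr5:141177775-141177814 for PCDHB8, chr5:141187072-141187111 for PCDHB9 and chr5:141213863-141213902 for PCDHB13 in the beta cluster, and at chr5:141338701-141338740 for PCDHGA2, chr5:141343765-141343804 for PCDHGA3, chr5:141382647-141382686 for PCDHGA7, chr5:141392566-141392605 for PCDHGA8, chr5:141402712-141402751 for PCDHGA9 and chr5:141484950-141484989 for PCDHGC4 in the gamma cluster. All lie upstream of the annotated start except that of PCDHB8, which spans it. The CGCT of PCDHB8 lies after the start, outside the searched stretch, so this promoter counted among those without CGCT there.

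The letters around the core ran along the subclusters. The longer run ATGATGTCGCT, read off the alpha windows and searched on both strands, stood in 8 of 11 alpha promoters and in no other of the 35114 promoters. PCDHA9, PCDHA10 and PCDHA11 were the alpha promoters without it. The beta run GGTGGCGCTGCAG stood in 10 of 13 beta promoters and in 15 promoters of the table (0.0427%). The gamma A windows shared the shorter run CGCTGTT, found in all 6 gamma A promoters, in PCDHGB2 and PCDHGB4, and in 2.26% of all promoters. These runs contain the core, and they were read off the same promoters in which they were counted. The PCDHGC4 window was identical to each of the other printed windows at only 14 to 19 of 40 bases. The PCDHB8 and PCDHB13 windows were identical at 39 of 40 bases, although the PCDHB13 probe was detected on all 8 arrays and that of PCDHB8 on 3.

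Most clustered protocadherin promoters held few CpG by count. The median was 7.5 CpG per 300 bases, against 14.0 over all promoters. The median GC content was 40.6%, against 58.7% over all promoters. The median ratio of observed CpG to that expected from base composition was 0.62, against 0.58. By this ratio CpG was not depleted relative to all promoters. CpG outside the 300 bases, such as those further into the first exons, were not counted. Counts ran from 3 to 9 in the alpha promoters, from 5 to 12 in the beta and from 4 to 7 in the gamma A, whereas the C-type promoters were richer, with 27 in PCDHAC1, 15 in PCDHAC2, 18 in PCDHGC3 and 23 and 24 in the pair of PCDHGC4 promoters. Genes detected on all 8 arrays had 5 to 10 CpG per promoter (median 6.0), and those detected on none had 3 to 27 (median 7.0). The contrast is visible in the 250 bases before the start of PCDHB13 (chr5:141213669-141213918), with 8 CpG, and of PCDHGC4 (chr5:141484780-141485029, the first of its promoters), with 13, both on the plus strand and with CpG in capitals.
PCDHB13: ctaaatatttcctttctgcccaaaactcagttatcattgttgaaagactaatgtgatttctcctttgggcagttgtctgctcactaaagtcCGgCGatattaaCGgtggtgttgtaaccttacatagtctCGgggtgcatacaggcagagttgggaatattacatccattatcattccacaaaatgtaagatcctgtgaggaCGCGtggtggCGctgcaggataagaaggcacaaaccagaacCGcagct
PCDHGC4: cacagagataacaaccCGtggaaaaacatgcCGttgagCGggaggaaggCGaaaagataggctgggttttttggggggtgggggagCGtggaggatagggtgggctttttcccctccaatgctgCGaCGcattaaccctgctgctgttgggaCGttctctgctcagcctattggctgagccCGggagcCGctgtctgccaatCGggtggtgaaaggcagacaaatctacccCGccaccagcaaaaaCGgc
The letters CGCT stood in the searched stretch of all 6 promoters of genes detected on all 8 arrays and of 23 of the 27 promoters (85.2%) of genes detected on none. No methylation was measured on these arrays.

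Across all arrays, 21556 to 23278 of the 34127 non-control probes were well above background (the scanner software's own call; 63.2% to 68.2%), with 65.8% or more on the slide of the empty vector and TET1-CDwt and 64.6% or less on the slide of the MBD fusions. Of 15 probes for genes that mark this line, 12 were well above background on all 8 arrays, and of 7 probes each for fibroblast and leukocyte genes 1 and 2 were. The 2 TET1 probes gave levels of -1.55 to -0.7 and 2.61 to 2.94 over all 8 arrays. Where they lie relative to the catalytic domain is not given, so they do not check the constructs. Levels are log2 values of the background-corrected signal relative to each array's own 75th percentile, which lay at 327.6 to 526.6 intensity units, and the number of arrays limits their precision.

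Most of the cluster was not detected in any clone. Of 58 probes, 39 (67.2%) passed the detection call on no array, against 26.8% of all probes, and 6 (10.3%) were on all 8, against 59.6%. Among genes, 6 of 50 were detected on all 8 arrays, 11 on 1 to 7 arrays and 33 on none. The genes detected on none comprised 11 of 13 alpha genes (PCDHA1 to PCDHA4, PCDHA6 and PCDHA8 to PCDHA13), both alpha C genes, 13 of 18 beta genes (PCDHB1, PCDHB4 to PCDHB7, PCDHB10, PCDHB12, PCDHB14 to PCDHB16 and the pseudogenes PCDHB17P, PCDHB18P and PCDHB19P), PCDHGA5, 5 of 7 gamma B genes (PCDHGB2, PCDHGB3, PCDHGB6, PCDHGB7 and PCDHGB8P) and PCDHGC3. Of the gamma A probes, 8 of 10 were detected on at least 1 array, against 2 of 14 alpha, 5 of 19 beta and 2 of 9 gamma B probes. In a bulk sample, fewer cells expressing a gene and less RNA per cell cannot be told apart.

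**Figure D1:**
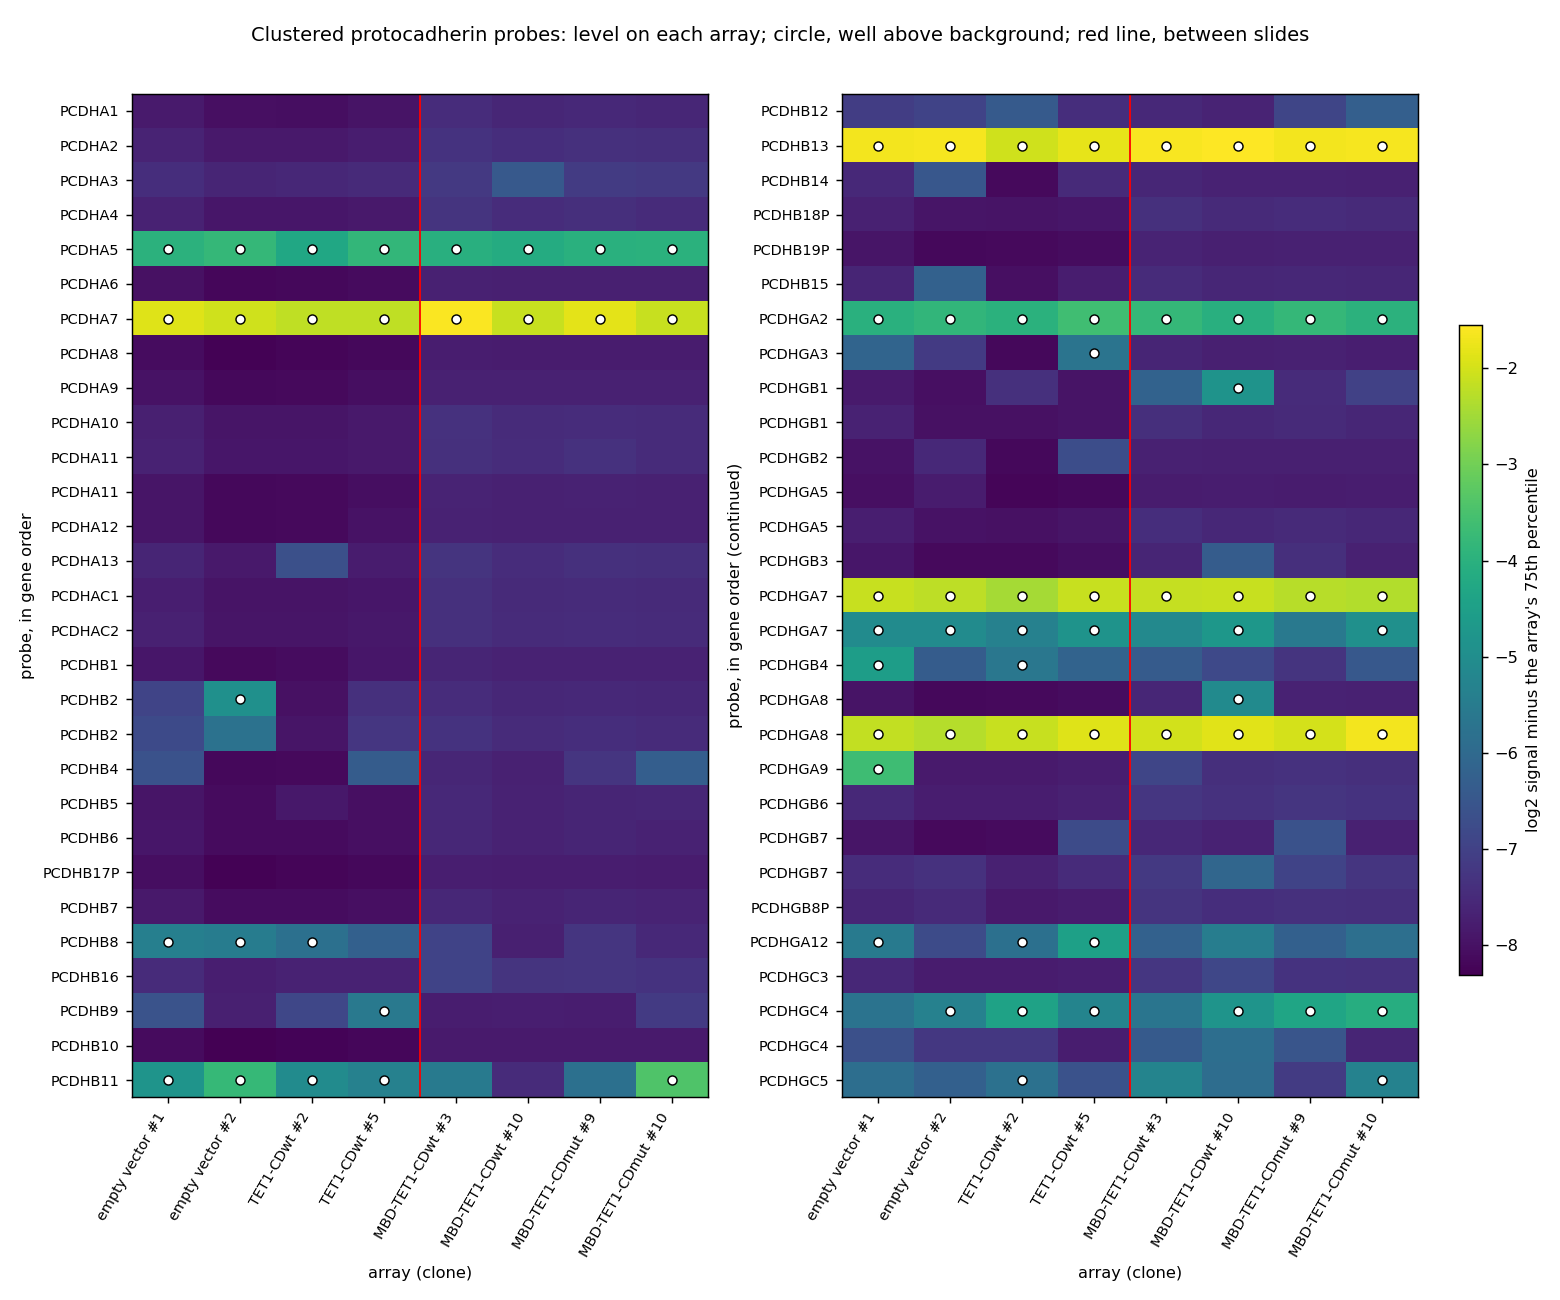
Level of each of the 58 clustered protocadherin probes (rows, in gene order along the chromosome) on each of the 8 arrays (columns), as log2 signal minus the array's 75th percentile. Circles mark probes well above background and the red line separates the slides. Rows with 8 circles are PCDHA5, PCDHA7, PCDHB13, PCDHGA2, PCDHGA7 and PCDHGA8, and lone circles stand for probes detected in 1 clone.

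The dim probes gave a background level that moved with the slide. The median of the 39 undetected members was -7.71, -7.94, -8.01 and -7.87 on the arrays of empty vector #1 and #2 and TET1-CDwt #2 and #5, and -7.47, -7.59, -7.48 and -7.58 on those of the active fusion (#3, #10) and the inactive one (#9, #10). All undetected probes of the array moved likewise, from -7.95 to -7.7 on the first slide and from -7.53 to -7.41 on the second. Over all 58 probes the median difference between MBD-TET1-CDwt and the empty vector was 0.37, and over the 9144 undetected probes of the array with a value in these groups it was also 0.37. Between MBD-TET1-CDwt and MBD-TET1-CDmut, which shared a slide, the undetected members differed by a median of 0.03, and all undetected probes by 0.03.

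The alpha cluster was read in these cells through PCDHA5 and PCDHA7. PCDHA7 had levels of -1.87 and -2.04 in the empty vector clones, -2.2 and -2.19 in TET1-CDwt, -1.6 and -2.11 in MBD-TET1-CDwt, and -1.84 and -2.12 in MBD-TET1-CDmut. PCDHA5 had levels of -3.96 and -3.81, -4.27 and -3.84, -4.04 and -4.15, and -4.02 and -4.0 in the same order. For both genes the clones of every construct lay within 0.6 log2 units of one another, over all 8 arrays. Between MBD-TET1-CDwt and the empty vector PCDHA7 differed by 0.10 (SE 0.23) and PCDHA5 by -0.21 (SE 0.20). The 11 other alpha genes and both alpha C genes, the latter known for more uniform expression in neurons, gave no signal well above background with any construct.

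In the beta cluster, PCDHB13 was the least variable tested member, with a pooled SD between clones of 0.09 log2 units, at percentile 5.3 of all tested probes. Its levels were -1.68 and -1.65 in the empty vector clones, -2.04 and -1.79 in TET1-CDwt, -1.61 and -1.55 in MBD-TET1-CDwt, and -1.67 and -1.65 in MBD-TET1-CDmut. It was detected on all 8 arrays, and its lowest value was in TET1-CDwt clone #2.

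PCDHB8 was detected on the first slide and not on the second. It was well above background in both empty vector clones (-5.38 and -5.47) and in TET1-CDwt #2 (-5.82), and missed the call in TET1-CDwt #5 (-6.25), in both MBD-TET1-CDwt clones (-6.95 and -7.71) and in both MBD-TET1-CDmut clones (-7.26 and -7.52). It entered the tested set through the empty vector, the group in which it was detected on both arrays, so its differences from that group are given as a description. The undetected arrays give only a bound, by which the empty vector was at least 1.08-fold higher than either fusion. With undetected signals set to the lowest passing level, MBD-TET1-CDwt differed from the empty vector by -0.11 and MBD-TET1-CDmut by -0.10. After normexp background correction the differences were 0.08 and -0.08. The offset of 50 in that correction was above the probe's intensity on every array (1.6 to 10.1 units). Such an offset makes log2 differences smaller by itself, so the normexp values do not check the difference. Neither fusion was detected, so they could not be compared with one another. Slide, fusion protein and clone cannot be told apart here.

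PCDHB11 varied strongly between sister clones. Its levels were -4.8 and -3.77 in the empty vector clones, -5.05 and -5.35 in TET1-CDwt, -5.53 and -7.47 in MBD-TET1-CDwt, and -5.82 and -3.41 in MBD-TET1-CDmut. It was detected in all 4 clones of the first slide and in MBD-TET1-CDmut #10, and missed the call in the 3 other clones of the fusions. Its pooled SD between clones, 1.16, was at percentile 99 of all tested probes and includes those undetected values. The empty vector was at least 2.36-fold higher than MBD-TET1-CDwt (limma adjusted p = 0.755). The difference was -1.24 with undetected signals at the lowest passing level and -0.12 after normexp correction. The normexp offset of 50 was above the probe's intensity on every array (1.8 to 36.5 units). It makes log2 differences smaller by itself, so the normexp value does not check the size of the difference.

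PCDHB2 was well above background in empty vector clone #2 and nowhere else, at -4.91, with undetected signals in the 7 other clones. Its second probe was detected on no array, but was also highest in empty vector clone #2, at -5.77 (8.2 intensity units, against 1.8 to 3.2 elsewhere). PCDHB15, a probe with many spots, missed the detection call on every array, but had all 10 usable spots above their measurement error in that clone, 1 of them well above background, with a median intensity of 6.23 units, against between 0 and 4 spots above error on the others. That array held more lone detections than the rest over the whole design: 475 probes were well above background on it alone, against 102 to 218 on each other array, and the part of this in the PCDHB2 call was not tested. PCDHB9 was detected in TET1-CDwt #5 alone (-5.58). PCDHB1, also spotted repeatedly, had no spot well above background on any array.

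In the gamma cluster, PCDHGA2, the first probe of PCDHGA7 and a PCDHGA8 probe were detected on all 8 arrays and stayed nearly level. PCDHGA2 had levels of -4.01 and -3.87 in the empty vector clones, -4.0 and -3.63 in TET1-CDwt, -3.8 and -4.04 in MBD-TET1-CDwt, and -3.82 and -3.96 in MBD-TET1-CDmut. PCDHGA7 had -2.13 and -2.22, -2.47 and -2.13, -2.14 and -2.11, and -2.28 and -2.32 in the same order. PCDHGA8 had -2.17 and -2.29, -2.12 and -1.89, -2.0 and -1.85, and -1.98 and -1.68, so that both empty vector clones lay below all 6 others. Its difference between MBD-TET1-CDmut and the empty vector, 0.40 (SE 0.19), had an unadjusted p of 0.0749 and an adjusted p of 1 (limma). Over the 6 probes detected on all arrays the active and inactive MBD fusions differed by -0.10 to 0.17. The second probe of PCDHGA7 was detected on 6 arrays, at -5.04 and -5.04, -5.35 and -4.83, -5.13 and -4.72, and -5.58 and -4.91, missing the call in MBD-TET1-CDwt #3 and MBD-TET1-CDmut #9.

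PCDHGC4, a C-type gamma gene, had the lowest unadjusted p of any member in a comparison within a slide. Its levels were -5.74 and -5.33 in the empty vector clones, -4.42 and -5.26 in TET1-CDwt, -5.68 and -4.82 in MBD-TET1-CDwt, and -4.34 and -4.11 in MBD-TET1-CDmut. Both clones of the inactive fusion lay above every other clone. The level in MBD-TET1-CDmut was 2.48-fold that of the empty vector (1.31 on the log2 scale, SE 0.38, unadjusted p = 0.0107, limma adjusted p = 1) and 2.04-fold that of MBD-TET1-CDwt (active minus inactive -1.03, SE 0.38, unadjusted p = 0.0307, limma adjusted p = 0.69). It was well above background on 6 arrays, not in empty vector #1 or MBD-TET1-CDwt #3. The other PCDHGC4 probe was detected on no array. The empty vector was on the other slide, and slide and construct cannot be told apart in that difference. After normexp correction the inactive fusion differed from the empty vector by 0.42 and the active from the inactive by -0.08. The offset of 50 in that correction was above the probe's intensity on every array (6.6 to 24.5 units). Such an offset makes log2 differences smaller by itself, so these values do not check the size of the difference.

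PCDHGA12, PCDHGB4 and PCDHGC5 were detected on 2 or 3 arrays each. PCDHGA12 was detected in empty vector #1 and both TET1-CDwt clones, at -5.56 and -6.77 in the empty vector, -5.81 and -4.47 in TET1-CDwt, -6.21 and -5.45 in MBD-TET1-CDwt, and -6.25 and -5.84 in MBD-TET1-CDmut, with a pooled SD of 0.71 at percentile 94.5 that includes its 5 undetected values. PCDHGB4 was detected in empty vector #1 (-4.54) and TET1-CDwt #2 (-5.64), with -7.29 to -6.17 elsewhere. PCDHGC5 was detected in TET1-CDwt #2 (-5.8) and MBD-TET1-CDmut #10 (-5.32), with -7.13 to -5.25 elsewhere. Its highest level, -5.25, was in MBD-TET1-CDwt #3, which missed the call, so the calls do not order the clones by level. For none of these 3 genes were both clones of a construct detected and all other clones undetected.

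Some members were detected in a lone clone. Of the 58 probes, 6 (10.3%) passed the call on exactly 1 array, against 4.6% of all probes, and these were 6 of the 19 probes detected at all (31.6%, against 6.3%). PCDHGA9 was the clearest, at an intensity of 28.3 units and a level of -3.64 in empty vector #1 and -7.83 to -6.9 in the 7 other clones. PCDHGB1 (-4.85) and the other PCDHGA8 probe (-5.07) were detected in MBD-TET1-CDwt #10 alone, with -8.04 to -6.18 and -8.17 to -7.59 elsewhere. PCDHGA3 was detected, with PCDHB9, in TET1-CDwt #5 (-5.72), with -8.17 to -6.13 elsewhere. A lone detection rests on a single spot for each of these probes, and no second array of the same clone was among the samples.

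Genes with more than 1 probe often gave different answers. Of 8 such genes, 3 (PCDHA11, PCDHGA5 and PCDHGB7) had both probes undetected on all arrays, and 5 differed in the number of arrays, most for PCDHGA8 with 8 and 1 and PCDHGC4 with 6 and 0. The PCDHGA8 probes were assigned to different RefSeq transcripts of the gene, and the PCDHGC4 probes to the same transcript. The PCDHB2 probes differed in the call, but both were highest in empty vector #2. Cross-hybridisation between these related genes was not tested.

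By clone, 12 and 11 members were well above background in the empty vector, 13 and 12 in TET1-CDwt, 6 and 10 in MBD-TET1-CDwt and 7 and 10 in MBD-TET1-CDmut. In both clones of a construct 9, 10, 6 and 7 members were detected, in that order. Of the members, 7 (12.1%) were detected on the first slide and on no array of the second, against 4.68% of all probes, and 2 (3.45%, against 1.71%) the other way round. The lowest level at which a probe was well above background was -6.01 to -5.82 on the first slide and -5.56 to -5.51 on the second, so a dim member needed a higher level on the second slide to be called. The part of that difference in the lower counts of the MBD clones was not tested.

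**Figure D2:**
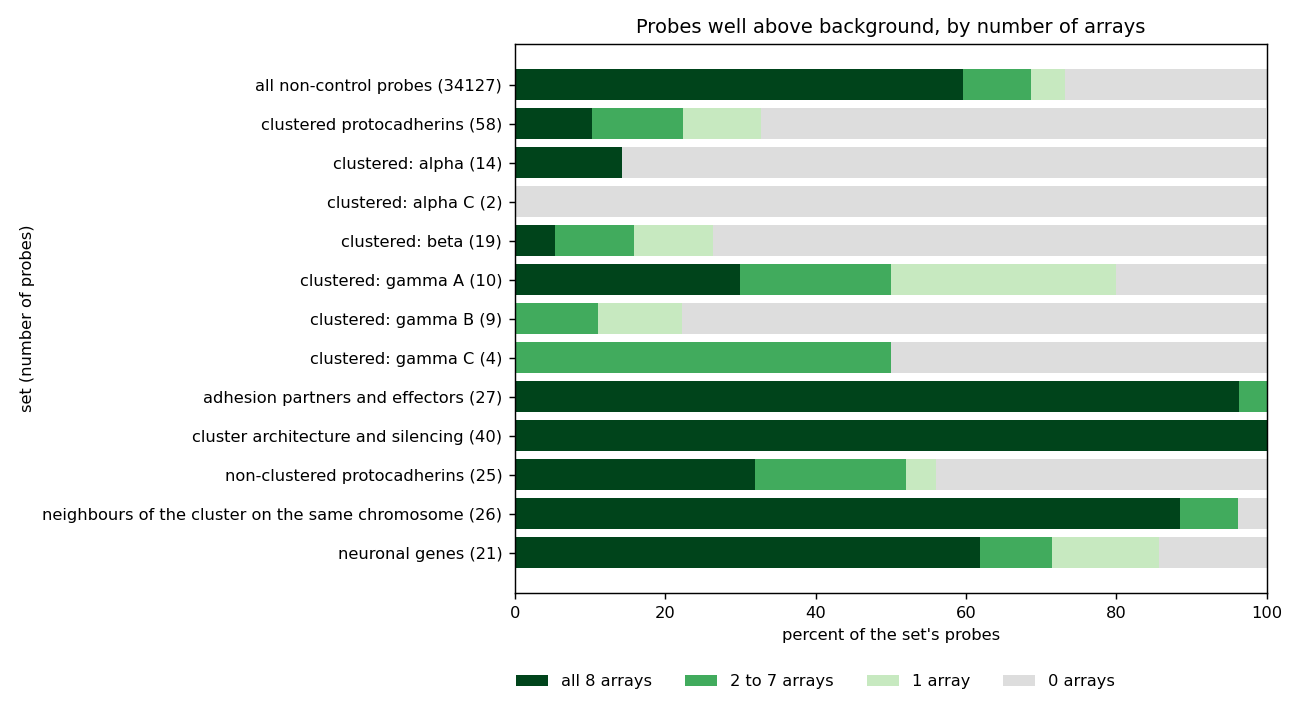
Percent of each set's probes that passed the detection call on all 8, 2 to 7, exactly 1 or 0 of the 8 arrays (number of probes in parentheses). Clustered protocadherins stand at 10.3% for all 8 arrays against 59.6% for all probes, and every probe of the cluster architecture and silencing list was detected on all 8.

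No member was called as changed with any construct at an adjusted p under 0.05. In simulated data this threshold recovered 9 of 50 changes of 1 log2 unit between MBD-TET1-CDwt and the empty vector. Changes of that size can therefore be missed. Of the 58 probes, 11 passed the filter (the detection call in both clones of some construct), namely those of PCDHA5, PCDHA7, PCDHB8, PCDHB11, PCDHB13, PCDHGA2, PCDHGA8, PCDHGA12 and PCDHGC4 and both of PCDHGA7, among 22530 tested. Between TET1-CDwt and the empty vector, 0 of 11 rose and 0 fell (limma), against 0% of all tested probes each way. At an unadjusted p under 0.05, 0 members rose or fell, against 0.652% and 1.85%. Both TET1-CDwt clones lay above both empty vector clones for 2 members (10.7% of all tested) and below for 4 (17%). The median difference of the 11 was -0.13, against -0.03 over all tested probes.

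Between MBD-TET1-CDwt and the empty vector, the comparison in which the array as a whole changed most against the vector, 0 members rose and 0 fell, against 0.102% and 0.0133% of all tested probes (limma). At an unadjusted p under 0.05 there were 0 members higher and 2 lower, PCDHB8 and PCDHB11, against 2.84% and 3.76%. Nothing is read from these 2, since both probes were undetected in both MBD-TET1-CDwt clones and PCDHB8 passed the filter only through the empty vector. Groups did not overlap upward for 2 members (13.7% of all tested) and downward for 3 (17.2%). The median was 0.08, against -0.02. Between MBD-TET1-CDmut and the empty vector, 0 rose and 0 fell, against 0% each way, with PCDHGC4 higher and PCDHB8, undetected in MBD-TET1-CDmut, lower at an unadjusted p under 0.05 (background 0.861% and 1.82%). The 11 had a median of -0.02, as had all tested probes. These 3 comparisons share the empty vector clones.

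Between the active and the inactive MBD fusion, on the same slide, 0 members rose and 0 fell (limma), against 0.0888% and 0.0133% of all tested probes. At an unadjusted p under 0.05, PCDHGC4 was lower with the active domain and none was higher, against 3.56% and 3.28%. The groups did not overlap for 2 members upward (18.1% of all tested) and 2 downward (17.9%), and the median was 0.06, against 0.01. Between MBD-TET1-CDwt and TET1-CDwt, 0 rose and 0 fell, against 0.107% and 0.00888%, with 0 higher and 1, PCDHB8, lower at an unadjusted p under 0.05 (background 2.56% and 2.18%). PCDHB8 was undetected in MBD-TET1-CDwt and in TET1-CDwt #5, and no fold can be given. Setting undetected signals to the lowest passing level gave 0.32. Both MBD-TET1-CDwt values are then those arrays' lowest passing levels, -5.56 and -5.51, so no direction is read from it. A test for any difference among the 4 constructs called 0 of 11 members and 0.0843% of all tested probes, with the lowest adjusted p of a member, 0.289, for PCDHB8, which rests on undetected values in 5 clones.

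**Figure D3:**
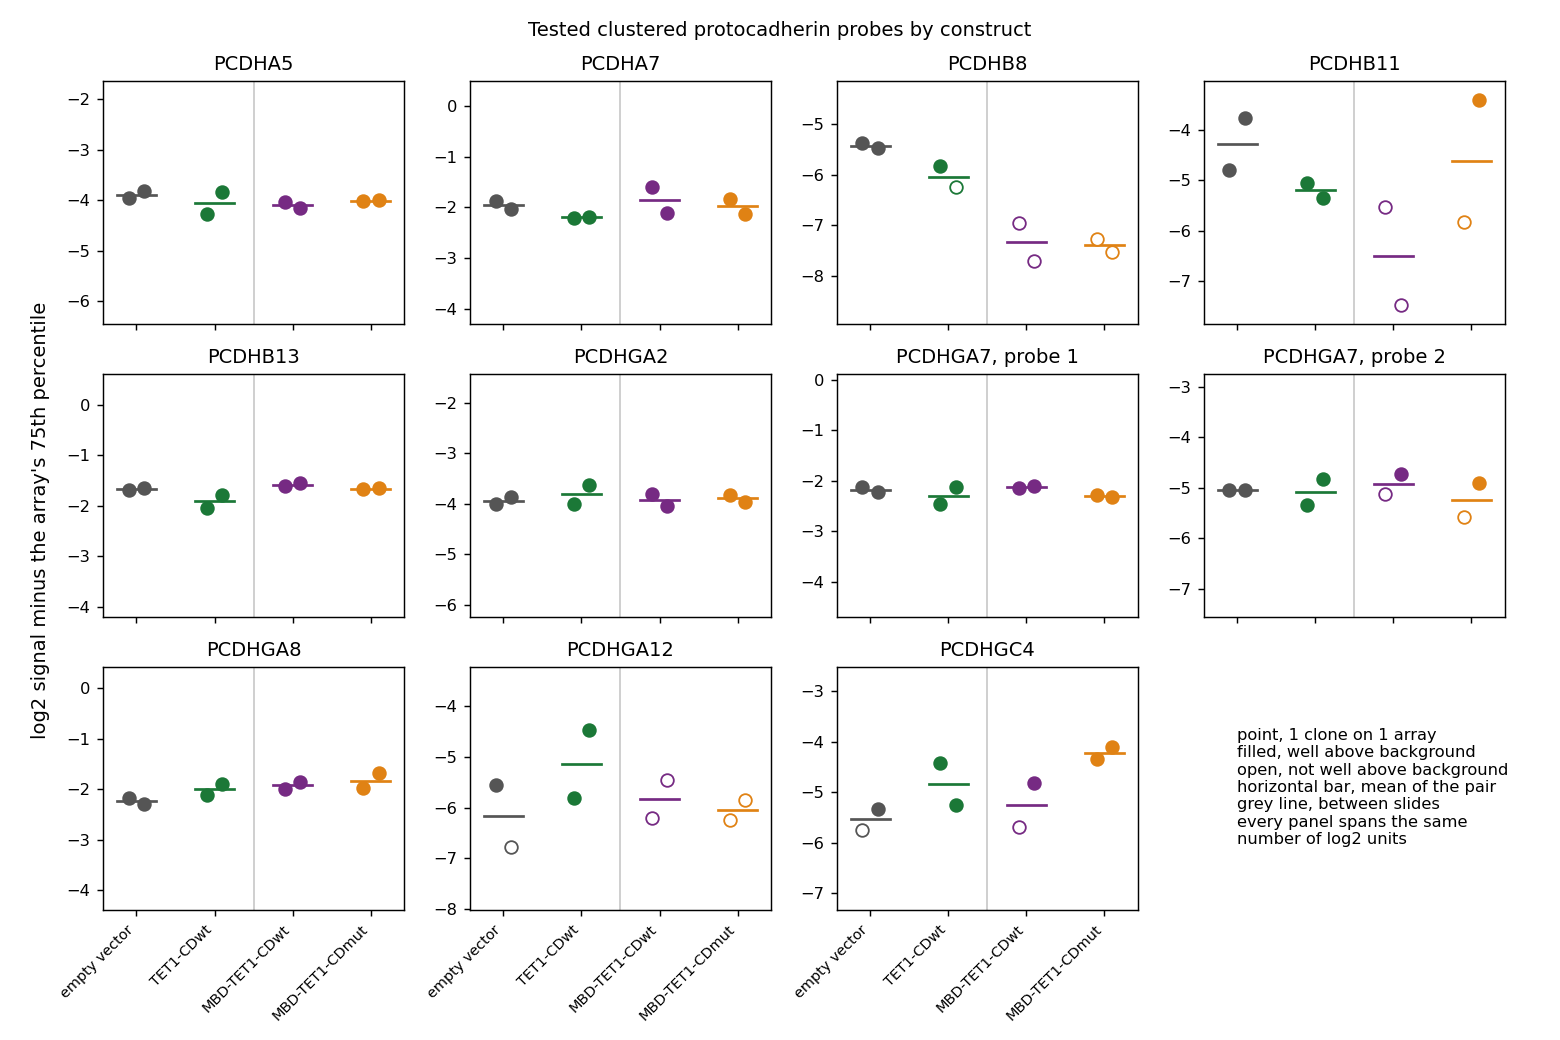
Level of the 11 tested probes in each clone, as log2 signal minus the array's 75th percentile, by construct; filled points were well above background, bars are means of n = 2 clones, and the grey line separates the slides. PCDHA5, PCDHA7, PCDHB13, PCDHGA2, PCDHGA7 (probe 1) and PCDHGA8 stay within 0.61 log2 units over all 8 clones, PCDHB8 has only open points on the second slide, and PCDHB11 has 1 filled point there.

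**Figure D4:**
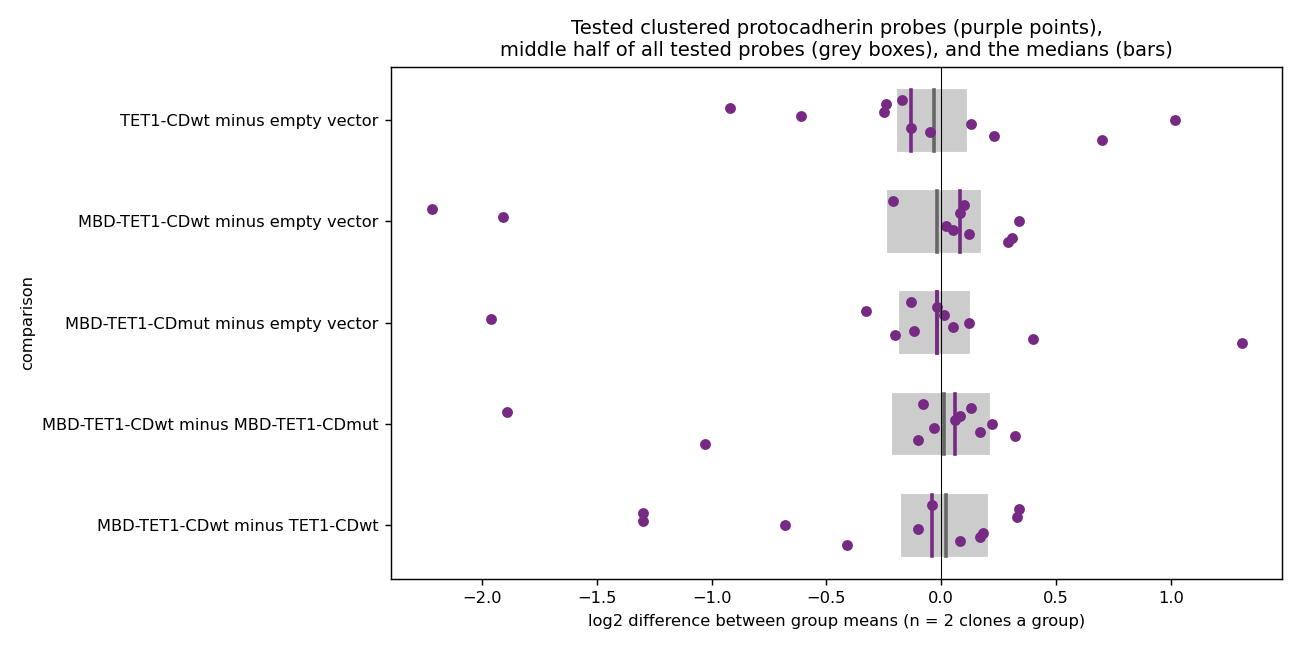
Log2 difference between group means for the 11 tested probes (points) in each of 5 comparisons, with the interquartile range of all 22530 tested probes (boxes) and the medians of both (bars). The medians of the members lie between -0.13 and 0.08, and the far points are PCDHB8, PCDHB11, PCDHGC4 and PCDHGA12. Each of these probes was undetected in some clones. These were TET1-CDwt #5 and all fusion clones for PCDHB8, and both MBD-TET1-CDwt clones and MBD-TET1-CDmut #9 for PCDHB11. For PCDHGC4 they were empty vector #1 and MBD-TET1-CDwt #3, and for PCDHGA12 empty vector #2 and all fusion clones.

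Transcripts of the proteins known to act on the cluster were detected in every clone. All 40 probes for 25 genes of cluster architecture and silencing, among them CTCF, the cohesin subunits, the repressor SMCHD1 and the DNA methyltransferases, were well above background on all 8 arrays. CTCF stood at 0.25 and 0.25 in the empty vector clones, 0.41 and 0.22 in TET1-CDwt, 0.55 and 0.06 in MBD-TET1-CDwt, and 0.17 and 0.37 in MBD-TET1-CDmut. In none of the 5 comparisons did a probe of this list rise or fall at an adjusted p under 0.05 (limma), and the list medians ran from 0.01 to 0.11. Between MBD-TET1-CDwt and the empty vector its members farthest apart were a DNMT3A probe (0.72, SE 0.31, adjusted p = 0.769), which codes for a de novo methyltransferase, and LRIF1 (0.59, SE 0.20, adjusted p = 0.691), which codes for a partner of SMCHD1. That DNMT3A probe had -1.34 in MBD-TET1-CDwt #3 and -0.41 in #10, against -1.48 and -1.71 in the empty vector clones. A second had -1.22 and -0.42, against -1.04 and -1.02, and the third -4.62 and -4.45, against -4.75 and -4.74. The 21 adhesion partners and effectors included the WAVE complex and the kinases PTK2 and FYN. Of their 27 probes, 26 were detected on all 8 arrays and 0 changed in any comparison (limma). Differences between MBD-TET1-CDwt and the empty vector ran from -0.56 to 0.34. The highest was a RET probe (0.34, SE 0.38, limma adjusted p = 0.918). The other RET probe ran the other way, with -3.35 and -3.24 in MBD-TET1-CDwt and -3.22 and -2.94 in the empty vector clones. The ROR2 probe detected on all 8 arrays differed by -0.10 (SE 0.35, adjusted p = 0.977). A second ROR2 probe, the lowest of the list at -0.56, was undetected in both MBD-TET1-CDwt clones, with the empty vector at least 1.18-fold higher.

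Most genes around the cluster were detected throughout. Of 26 probes for 21 neighbours on the same chromosome, 23 (88.5%) were well above background on all 8 arrays and 1 on none. No neighbour changed in any comparison (limma, 24 probes tested). WDR55, the neighbour with the highest difference between MBD-TET1-CDwt and the empty vector, had levels of 0.55 and 0.54 in the empty vector clones, 0.74 and 0.73 in TET1-CDwt, 0.98 and 1.07 in MBD-TET1-CDwt, and 0.56 and 0.43 in MBD-TET1-CDmut, with both active fusion clones above all others (0.48, SE 0.16, adjusted p = 0.69). The neighbour farthest apart in this comparison ran the other way: a PCDH1 probe, for a protocadherin outside the clusters, had 0.09 and 0.69 in the empty vector clones, 0.81 and 0.16 in TET1-CDwt, -0.69 and -0.42 in MBD-TET1-CDwt, and 0.56 and 0.49 in MBD-TET1-CDmut (-0.95, SE 0.29, limma adjusted p = 0.639).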

How the data were processed

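Total RNA of 8 stable HEK293T clones, 2 for each of 4 constructs, was labelled with Cy3 and hybridised to 1-colour human expression arrays. The deposited scanner files hold, for each spot, the background-corrected intensity and detection flags that the authors obtained with Agilent Feature Extraction (version 9.5.1 in the submitters' processing notes, 10.7.3.1 in the file headers). Probes were named through RefSeq. Where a spot was not above its error, the software writes a substitute intensity, so the levels of such spots have no order. Undetected probes include these and probes above their error but not well above background. On each array 17 to 26 members were above error and 6 to 13 well above background.

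Spots of a probe were averaged without outlier spots, log2 was taken, and the 75th percentile of each array was subtracted. The deposited value table held the same intensity as the scanner files at all 44495 spots of each array (tolerance 0.001), with column medians of 44.38 to 67.79, and gave no separate alternative. A probe counted as detected where more than 50% of its usable spots were flagged well above background. Probes detected on both arrays of at least 1 group and measured on all arrays (22530) were fitted with limma 3.58.1 in R 4.3.3 (4 group means, 4 residual degrees of freedom, Benjamini-Hochberg adjustment, threshold 0.05). The fit was tested on simulated data. Where both arrays of a group missed the detection call, the fold is a bound against the lowest signal that passed it. P-values measure the spread between clones. Python 3.11.15 was used for the remaining steps.

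The rule for named genes took members detected in both clones of a construct, the 10 with the largest differences between MBD-TET1-CDwt and each of MBD-TET1-CDmut and the vector, the 5 with the largest in each other comparison, and, of each other list, called genes or otherwise the 2 farthest apart. Other members detected in a clone, and CTCF, were named after their values were seen. The members and lists were chosen with earlier results of these data known. Alternatives were other scalings, normexp background correction (offset 50, on the median spot signal because no mean signal is used here, and fitted without spots with an outlying background), no filter, dim probes set to a floor, and leaving out each array. RefSeq promoters are of GRCh38.p14. No coordinates of the array's design were used.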

Additional observations from a re-analysis of the deposited data

How the results depend on the processing

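Of 877 values for single members under the alternatives, 1 passed the threshold: PCDHB8 between MBD-TET1-CDwt and the empty vector without MBD-TET1-CDwt #3 (-2.28, adjusted p = 0.0333), where the remaining fusion array was undetected, so the count of members lower there was 0 to 1 when each array was left out. Leaving out each array moved the member medians from -0.30 to 0.05 (TET1-CDwt minus vector), -0.04 to 0.08 (MBD-TET1-CDwt minus vector), -0.09 to 0.02 (MBD-TET1-CDmut minus vector), -0.13 to 0.06 (active minus inactive fusion) and -0.09 to 0.17 (MBD-TET1-CDwt minus TET1-CDwt). Without a filter the medians against the other slide were 0.37, 0.34 and 0.42 for MBD-TET1-CDwt and MBD-TET1-CDmut minus vector and MBD-TET1-CDwt minus TET1-CDwt. The last was 0.30 after normexp, where the median of all probes in that comparison was 0.31, against 0.11 without it. Signs turned after normexp for PCDHB8 (0.08) and PCDHA5 (0.13) in MBD-TET1-CDwt minus vector, and for PCDHB11 (0.28), PCDHGC4 (0.28), PCDHB8 (0.39) and PCDHGA12 (0.21) in MBD-TET1-CDwt minus TET1-CDwt. In that last comparison the sign also turned for PCDHB8 with dim probes at the floor (0.32), where both MBD-TET1-CDwt values were the floor itself. It also turned for PCDHGC4 without TET1-CDwt #2 (0.01) or MBD-TET1-CDwt #3 (0.02, range with each array left out -0.84 to 0.02). Between the fusions the sign turned for the second PCDHGA7 probe without MBD-TET1-CDmut #9 (range -0.01 to 0.66). The probes named for normexp all had intensities below its offset of 50 on every array, so no direction is read from those signs. Other than for that floor value, the causes were not tested. Another 50 values changed sign where the difference was within its standard error. Counted as detected on at least 1 array, members were 14 in the vector and 10 in MBD-TET1-CDwt. Counted as above error on both arrays, they were 20 (vector), 17 (TET1-CDwt), 13 (active fusion) and 16 (inactive fusion). With 1 array left out the detected members were 11 to 12, 12 to 13, 6 to 10 and 7 to 10 in that order. No paired analysis was possible because the groups compared share at most 1 clone number, and clone numbers name separate lines. Signal over background limits the 39 undetected probes, for which no direction can be given.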

Other observations

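Protocadherins outside the clusters, which are single genes elsewhere in the genome apart from PCDH1 and PCDH12, were detected more often. Of 25 probes, 8 (32.0%) were well above background on all 8 arrays and 11 on none. Of the 11 tested, 0 changed in any comparison (limma). The member of this list farthest apart was a probe of CDHR1, a photoreceptor cadherin, with levels of -3.54 and -3.99 in the empty vector clones, -3.99 and -4.57 in TET1-CDwt, -5.13 and -5.4 in MBD-TET1-CDwt, and -3.61 and -3.89 in MBD-TET1-CDmut. Both active fusion clones lay below all 6 others. The active fusion was 1.52 log2 units below the inactive one on the same slide (-1.52, SE 0.27, unadjusted p = 0.000859, limma adjusted p = 0.245). A second CDHR1 probe, detected on 4 arrays, was undetected in both active fusion clones and also in TET1-CDwt #5 and MBD-TET1-CDmut #9. A PCDH10 probe differed by -1.27 (SE 0.42, limma adjusted p = 0.643) in that comparison. PCDH1, which lies beside the clusters, differed by -1.08 (SE 0.29, limma adjusted p = 0.554).

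Of 21 probes for neuronal genes, 13 were well above background on all 8 arrays, and 0 of 14 tested changed in any comparison (limma). RBFOX3, a neuronal splicing factor, had levels of 0.13 and 0.62 in the empty vector clones, 0.95 and 0.23 in TET1-CDwt, -0.42 and -0.36 in MBD-TET1-CDwt, and 1.36 and 0.94 in MBD-TET1-CDmut. The active fusion held the lowest levels of this probe, -1.54 (SE 0.30, limma adjusted p = 0.315) from the inactive one. RBFOX3 was the lowest of this list there: 4 of the 14 tested probes were higher and 10 lower, from -1.54 to 0.42. Of 6 proximal tubule probes, 3 were well above background on all 8 arrays.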
